A study of Mus musculus with 30 samples.

Results

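Genes of nucleotide breakdown, nucleoside uptake and purine catabolism were followed along the epithelium of the mouse small intestine, with and without indolo[3,2-b]carbazole (ICZ), an indole that binds and activates the aryl hydrocarbon receptor (AHR), a ligand-activated transcription factor. These 9 members, out of 54146 genes in the count table, are Enpp3, Entpd8, Entpd5, Nt5e, Ada, Slc28a1, Slc28a2, Pnp and Xdh, and each was found by its symbol in 1 row of the table. Enpp3 was selected on its measured values, since it was higher with ICZ in the first fraction. The other 8 were chosen by function, with earlier results of these data known. Values of ICZ against vehicle in the first fraction are therefore given as a description, with no test. Female C57B6/J mice aged 8 to 10 weeks, labelled WT (wild type) in the titles, ate a semi-purified diet free of AHR ligands for 1 week. They then received corn oil alone (vehicle) or 10 µg ICZ in corn oil by gavage. At 12 h the epithelium was taken off the small intestine with EDTA, a chelator that loosens cell contacts, as 5 fractions (F1 first, F5 last), and RNA of each was sequenced from the 3' ends of transcripts, with 3 mice per treatment. Vehicle mice gave 15 libraries and ICZ mice 14, since no sample is labelled as F1 of ICZ replicate 3. The titles call the numbers biological replicates. The 29 libraries held between 4359673 and 7819837 gene reads, with a median of 6351137. All 9 members passed the filter on low counts in every comparison.

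ATP and other nucleotides that reach the gut lumen or the space around epithelial cells are cut stepwise by enzymes of the outer membrane face to nucleosides, which sodium-coupled carriers then bring into the cell. Inside the enterocyte, adenosine is deaminated to inosine, inosine is split to hypoxanthine, and hypoxanthine is either rebuilt into nucleotides (salvage) or oxidised to urate (catabolism). The small intestine is known for high activity of adenosine deaminase and xanthine oxidoreductase, and rapidly dividing crypt cells are known to make purines from small precursors as well.

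The labels number the fractions by release and do not name a part of the crypt-villus axis. Of 20 absorptive enterocyte markers, 19 were lower in F5 than in F1 of the vehicle mice and 0 were higher. Of 7 tested villus tip markers 5 were lower and 1, Egfr, was higher, while 8 of 10 stem cell markers and 13 of 15 proliferation markers were higher. The members are therefore described by fraction, and a share of villus tip cells was not measured. In bulk fractions, fewer cells of a type and less RNA per cell cannot be told apart. Several libraries stood apart. The F5 library of vehicle replicate 2 held 3438 CPM (reads of a gene scaled to the TMM library size) summed over 5 genes of the proximal intestine, Pdx1, Cybrd1, Slc40a1, S100g and Trpv6, against 82.4 and 390 CPM in the other vehicle F5 libraries. Vehicle replicate 3 held 1057, 842, 939 and 671 CPM of these genes in F1 to F4, against 85.4 to 217 CPM in the same fractions of the other vehicle mice. The 10 most abundant genes took 54.3% of the reads of the F5 library of ICZ replicate 1, against a median of 26.8% over 29 libraries. Summed transcripts of 5 pancreatic enzymes reached 1113 CPM in F5 of vehicle replicate 3 and 712 CPM in F5 of ICZ replicate 3.

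In vehicle mice all 9 members had a log2 fold change below 0 from F1 to F5, and 4 of them passed the test: Nt5e, Xdh, Entpd8 and Entpd5. By edgeR's quasi-likelihood F test, blocked by mouse and adjusted after Benjamini-Hochberg at 0.05, 28.1% of 13164 tested genes were called and 13.2% were called lower. The members' median log2 fold change was -0.78, against 0.02 over all tested genes. In ICZ mice the same 4 genes and also Slc28a1 and Enpp3 were lower in F5, 6 of 9 in all, where 32.6% of 13328 genes were called and 16.0% were called lower. The members' median there was -1.01, against 0.04 over all tested genes. Separate mice gave both values, but the members were chosen with earlier results of these data known. In the vehicle libraries intraepithelial T cell markers summed to 354 to 1008 CPM in F1 and 238 to 368 CPM in F5 (1 of 12 called lower), and early response genes, which react to dissociation, to 594 to 1298 CPM and 3160 to 5382 CPM (14 of 14 called higher). Their part in the members' values was not tested.

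**Figure D1:**
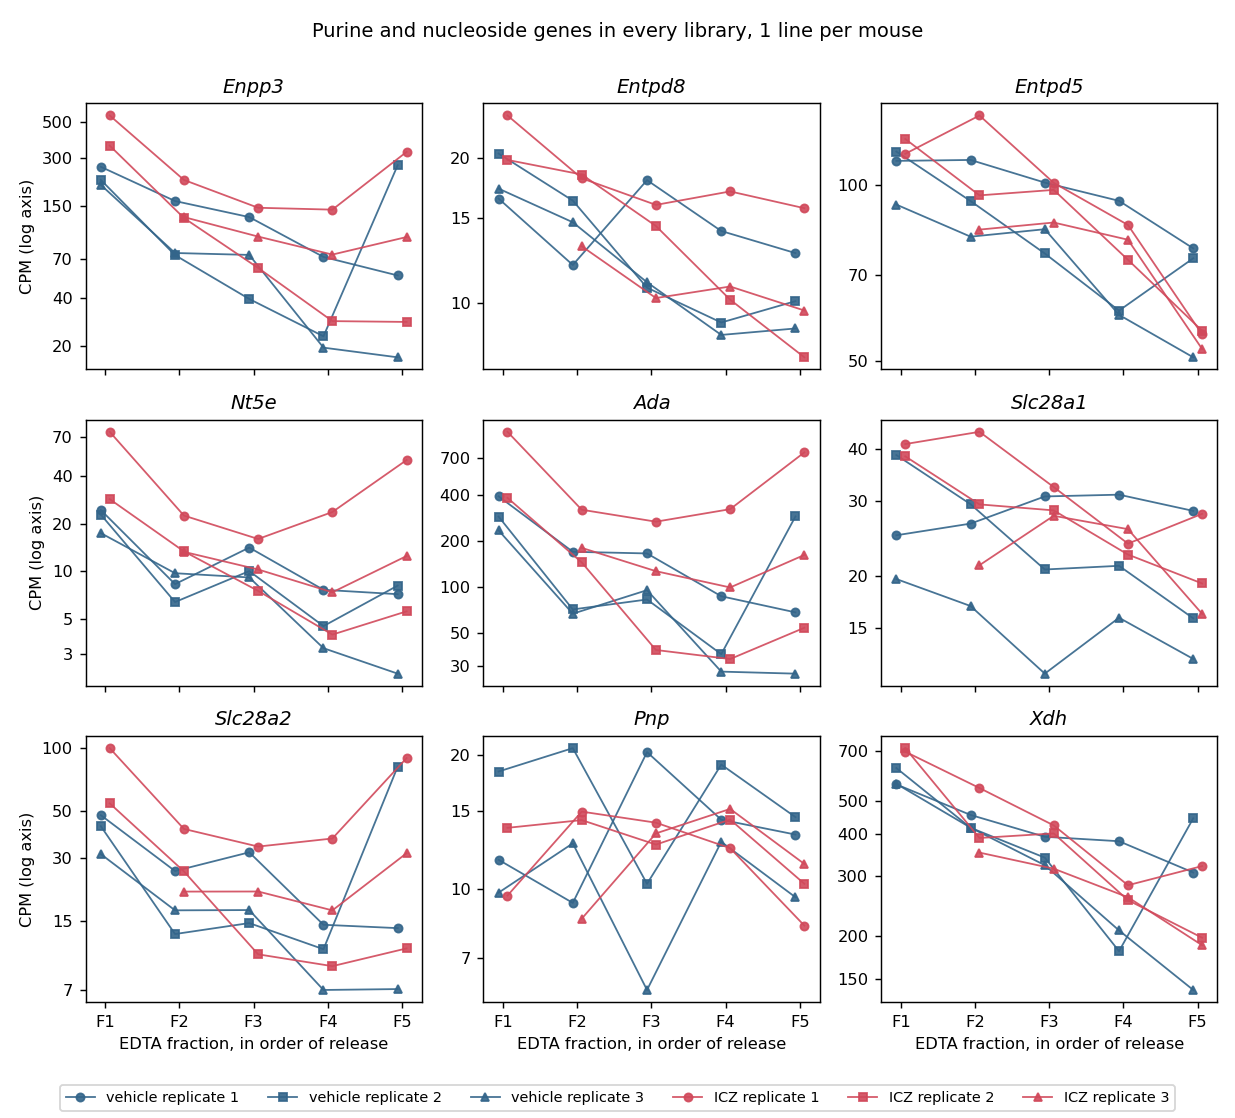
Level of each of the 9 genes (y axis, CPM, log axis) in each EDTA fraction (x axis), with 1 line per mouse and no error bars since every library is drawn. Most lines start high in F1. The lines of vehicle replicate 2 and ICZ replicate 1 turn up again in F5 for Enpp3, Ada and Slc28a2. They are not the only lines to do so: in every ICZ mouse F5 lay above F4 for Ada, Slc28a2 and Nt5e. Pnp shows no common direction.

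Enpp3 and Entpd8 open the sequence of extracellular nucleotide breakdown, and Entpd5, an enzyme of the secretory route, is described after them. Enpp3 (ENSMUSG00000019989.8, GRCm38 chr10:24772406-24842823, minus strand) encodes a membrane ecto-enzyme that cleaves extracellular nucleoside triphosphates and dinucleotides. In vehicle mice it stood at 263, 218 and 203 CPM in F1 (replicates 1 to 3), at 71.8, 22.9 and 19.4 CPM in F4, and at 55.0, 269 and 16.9 CPM in F5. In ICZ mice it stood at 550 and 356 CPM in F1 (replicates 1 and 2), at 142, 28.5 and 74.2 CPM in F4 (replicates 1 to 3) and at 326, 28.2 and 95.6 CPM in F5. Every F1 value lay above every F4 value of the same treatment, and F1 exceeded F4 by 3.66 to 12.5 times in the 5 mice with both libraries. F4 against F1 did not pass edgeR's test in vehicle mice (-2.77 ± 0.92 on the log2 scale, adjusted p = 0.0589) and passed in ICZ mice (-2.73 ± 0.62, adjusted p = 0.0153). F5 lay above F1 in vehicle replicate 2, so the vehicle groups overlapped and the log2 fold change of -1.12 ± 0.89 (SE) from F1 to F5 did not pass (adjusted p = 0.394 by edgeR). In ICZ mice the change of -1.98 ± 0.61 passed (adjusted p = 0.0410 by edgeR), and without ICZ replicate 2 (adjusted p = 0.0573) or ICZ replicate 3 (adjusted p = 0.133) it did not.

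Entpd8 (ENSMUSG00000036813.11, chr2:25080304-25085716, plus strand) encodes a plasma membrane ecto-nucleotidase that removes phosphates from extracellular ATP and ADP. Its mean fell in steps, from 18.1 ± 2.08 CPM in F1 of vehicle mice (SD, n = 3) through 14.3, 13.3 and 10.6 to 10.6 ± 1.96 in F5. The change from F1 to F5 was -0.78 ± 0.22 on the log2 scale in vehicle mice (adjusted p = 0.0137) and -0.91 ± 0.23 in ICZ mice (adjusted p = 0.00586), both by edgeR. F1 and F5 did not overlap in either treatment, while F2 to F5 overlapped from each neighbour to the next. The vehicle call was lost without replicate 2 (adjusted p = 0.129) or replicate 3 (adjusted p = 0.173), and the ICZ call without ICZ replicate 2 (adjusted p = 0.158). An exon of Entpd8 overlaps Noxa1 on the opposite strand, and the strand setting of the counting is not given in the sources used here, so reads of that stretch cannot be told apart.

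Entpd5 (ENSMUSG00000021236.16, chr12:84373857-84409029, minus strand) encodes a nucleoside diphosphatase of the endoplasmic reticulum and the secretory route. It had the narrowest range of the 9 genes in fold, between 50.7 and 131 CPM over 29 libraries. Its means fell from 105 CPM in F1 of vehicle mice to 67.8 in F5, and from 116 CPM to 54.7 in ICZ mice. The log2 fold changes were -0.64 ± 0.14 (adjusted p = 0.00217) and -1.01 ± 0.14 (adjusted p = 3.11e-05) by edgeR. All 3 ICZ F5 libraries, at 55.5, 56.3 and 52.4 CPM, lay below every other ICZ library. Without vehicle replicate 3 the call in vehicle mice was lost (adjusted p = 0.0768).

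Nt5e (ENSMUSG00000032420.8, chr9:88327197-88372092, plus strand), which encodes CD73, turns extracellular AMP into adenosine. In vehicle mice it stood at 24.4, 22.8 and 17.4 CPM in F1 and at 7.16, 8.12 and 2.25 CPM in F5, and in ICZ mice at 76.0 and 28.5 CPM in F1 and at 50.4, 5.58 and 12.5 CPM in F5. All vehicle F1 values lay above all other vehicle values, whereas F5 of ICZ replicate 1 lay above F1 of ICZ replicate 2. The change was -1.90 ± 0.30 on the log2 scale in vehicle mice (adjusted p = 0.000247) and -1.28 ± 0.42 in ICZ mice (adjusted p = 0.0370), both by edgeR. The vehicle call was the only one of the 4 that held without each of the 3 vehicle replicates in turn. The ICZ call was lost without ICZ replicate 2 (adjusted p = 0.139) and without ICZ replicate 3 (adjusted p = 0.113). The difference between the treatments' changes was not tested with F1 included.

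Ada (ENSMUSG00000017697.3, chr2:163726584-163750239, minus strand), adenosine deaminase, converts adenosine and deoxyadenosine to inosine and deoxyinosine. It ranged from 26.9 to 1046 CPM, a 38.9-fold spread over 29 libraries. Vehicle mice held 394, 290 and 235 CPM in F1, 86.8, 36.1 and 27.8 CPM in F4 and 68.0, 291 and 26.9 CPM in F5. ICZ mice held 1046 and 385 CPM in F1, 324, 33.6 and 99.2 CPM in F4 and 766, 53.9 and 162 CPM in F5. As for Enpp3, every F1 value lay above every F4 value of its treatment, and F5 of vehicle replicate 2 and of ICZ replicate 1 stood far above the other F5 libraries. In each ICZ mouse F5 of Ada lay above its F4. The change from F1 to F5 did not pass in vehicle mice (-1.37 ± 0.73 on the log2 scale, adjusted p = 0.204) or in ICZ mice (-1.60 ± 0.60, adjusted p = 0.0774) by edgeR. F4 against F1 passed in both, at -2.73 ± 0.75 (adjusted p = 0.0304) and -2.61 ± 0.61 (adjusted p = 0.0168).

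The 2 concentrative nucleoside transporters of the set differed in shape. Slc28a2 (ENSMUSG00000027219.13, chr2:122426477-122461137, plus strand) encodes CNT2, which prefers purine nucleosides and uridine, and Slc28a1 (ENSMUSG00000025726.11, chr7:81114799-81170416, plus strand) encodes CNT1, which prefers pyrimidine nucleosides. Slc28a2 stood at 47.9, 42.4 and 31.2 CPM in F1 of vehicle mice, at 14.3, 10.9 and 6.97 CPM in F4 and at 13.8, 81.8 and 7.04 CPM in F5. Its F5 value in vehicle replicate 2 was the highest of the 15 vehicle libraries, and the change of -0.40 ± 0.72 from F1 to F5 did not pass (adjusted p = 0.724 by edgeR), nor did that of -1.98 ± 0.77 from F1 to F4 (adjusted p = 0.0961). Slc28a1 stood at 24.9, 38.6 and 19.6 CPM in F1 of vehicle mice and at 28.5, 15.8 and 12.7 CPM in F5, with no upturn in replicate 2 and overlapping groups. Its change of -0.58 ± 0.22 missed the threshold in vehicle mice (adjusted p = 0.0577), and -0.83 ± 0.21 passed it in ICZ mice (adjusted p = 0.00463), both by edgeR. Without vehicle replicate 1 the vehicle change passed (adjusted p = 0.00137), and without ICZ replicate 2 the ICZ change did not (adjusted p = 0.205). Over the 15 vehicle libraries the log2 CPM of Slc28a2 correlated at 0.95 with Ada and at 0.28 with Slc28a1, as a description of libraries that share mice and fractions.

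The sequences just upstream of the transcription start are shown for these 2 transporters and for Ada, because Ada and Slc28a2 moved together and Slc28a1 did not follow them. Each is the 250 bases before the RefSeq start on GRCm38.p6, read on the gene's own strand, and 8 of the 9 members were found in that table. Capitals mark matches to 4 short motifs searched on both strands: GCGTG (the core bound by AHR with its partner ARNT), GATAA (GATA factors), TTTATNG (CDX factors) and CAAAGTNCA (HNF4), where N is any base.
Ada, chr2:163750240-163750489, minus strand: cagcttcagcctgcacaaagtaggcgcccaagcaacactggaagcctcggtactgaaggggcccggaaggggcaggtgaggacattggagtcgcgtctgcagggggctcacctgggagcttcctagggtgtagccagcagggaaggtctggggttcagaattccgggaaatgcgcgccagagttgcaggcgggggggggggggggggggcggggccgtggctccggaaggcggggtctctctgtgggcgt
Slc28a2, chr2:122426185-122426434, plus strand: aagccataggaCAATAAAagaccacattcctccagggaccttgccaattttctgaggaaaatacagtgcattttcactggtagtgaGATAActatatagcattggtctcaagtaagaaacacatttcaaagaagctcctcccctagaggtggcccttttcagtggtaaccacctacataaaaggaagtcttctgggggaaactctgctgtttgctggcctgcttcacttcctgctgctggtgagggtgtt
Slc28a1, chr7:81114549-81114798, plus strand: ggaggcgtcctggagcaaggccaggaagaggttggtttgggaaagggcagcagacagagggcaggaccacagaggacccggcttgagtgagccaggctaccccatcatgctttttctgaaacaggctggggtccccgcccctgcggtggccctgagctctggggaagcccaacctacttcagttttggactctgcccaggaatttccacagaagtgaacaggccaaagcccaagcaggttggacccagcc
The Slc28a2 window held 1 GATAA match and 1 match to the CDX motif, and the windows of Ada and Slc28a1 held none of the 4 motifs. GCGTG was present upstream of 2 of the 8 members, Entpd5 with 4 matches and Nt5e with 1, and upstream of 28.2% of 27025 windows of this length. GATAA was found for Slc28a2 and Pnp and in 23.0% of all windows, the CDX motif for Slc28a2 and in 10.2%, and the HNF4 motif for 0 members and in 1.21%. These are letter matches in one window per gene and say nothing of binding.

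Pnp (ENSMUSG00000115338.2, chr14:50931082-50965237, plus strand), purine nucleoside phosphorylase, splits inosine and guanosine into base and ribose phosphate. It showed no gradient in either treatment: vehicle means were 13.3, 14.2, 12.2, 15.4 and 12.4 CPM from F1 to F5, and F1 lay below F4 in 5 of 5 mice. The change from F1 to F5 was -0.07 ± 0.31 in vehicle mice (adjusted p = 0.895) and -0.19 ± 0.25 in ICZ mice (adjusted p = 0.605), both by edgeR. A close copy, Pnp2 (chr14:50955992-50964749, plus strand), lies inside the annotated span of Pnp, and their longest transcripts align over 1083 bases at 97.3% identity, so counts may have been split between them. Pnp2 had 15569 reads to 2441 for Pnp, and it did fall, from 112 ± 17.4 to 65.1 ± 6.69 CPM in vehicle mice (SD, n = 3, log2 fold change -0.76 ± 0.14, adjusted p = 0.000684 by edgeR). Added together, Pnp and Pnp2 went from 125 ± 20.9 CPM in F1 to 77.6 ± 9.02 in F5 in vehicle mice and from 107 to 56.0 CPM in ICZ mice. Exons of Pnp also overlap Gm49342 on the same strand and Gm38316 on the opposite strand, and Pnp2 overlaps Gm49342, so reads of those stretches cannot be told apart. The last 500 bases of the Pnp transcript, where 3' end reads would fall, share no 50-base window with Pnp2.

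Xdh (ENSMUSG00000024066.8, chr17:73883895-73950196, minus strand), xanthine oxidoreductase, carries out the final steps from hypoxanthine through xanthine to urate. In vehicle mice it stood at 558, 623 and 560 CPM in F1 and at 308, 444 and 139 CPM in F5, and in ICZ mice at 696 and 713 CPM in F1 and at 322, 198 and 188 CPM in F5. In both treatments all F1 libraries lay above all libraries of the other fractions. The change was -1.02 ± 0.33 in vehicle mice (adjusted p = 0.0431) and -1.49 ± 0.16 in ICZ mice (adjusted p = 6.06e-06), both by edgeR. The vehicle call was lost without vehicle replicate 1 (adjusted p = 0.183) and without vehicle replicate 3 (adjusted p = 0.247), and the ICZ call held without each ICZ replicate.

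**Figure D2:**
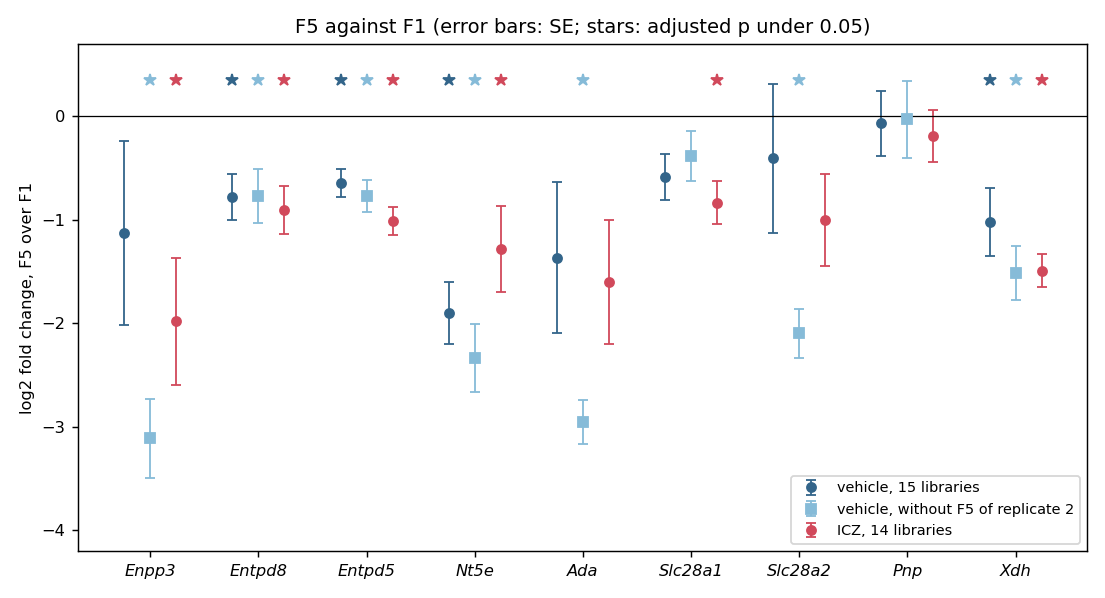
Log2 fold change of F5 over F1 (y axis) for each of the 9 genes (x axis) in vehicle mice, in vehicle mice without the F5 library of replicate 2, and in ICZ mice. Points are edgeR estimates, bars are standard errors and stars mark an adjusted p under 0.05. Enpp3, Ada and Slc28a2 move most when that library is left out.

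Without the F5 library of vehicle replicate 2, an alternative chosen after seeing the data, 7 of the 9 members were called lower in F5 where 12.9% of 13489 tested genes were. Enpp3 then stood at -3.11 ± 0.38 (adjusted p = 0.000323), Ada at -2.96 ± 0.21 (adjusted p = 3.62e-07) and Slc28a2 at -2.10 ± 0.24 (adjusted p = 1.79e-05) on the log2 scale in edgeR's test. With the mean log2 CPM of the proximal genes as a covariate, also chosen later, 7 members were called lower (15.5% of genes) and the same 3 genes stood at -2.30, -2.27 and -1.38. Across all 29 libraries the log2 CPM of the members correlated with that mean at -0.50 to 0.28, and between -0.47 and 0.14 without that library. F4 against F1, which does not use the F5 libraries' values in the contrast, called 5 members lower in vehicle mice and 8 in ICZ mice. In vehicle mice 1513 of 13164 genes were called lower and 24.9% in either direction. In ICZ mice 1731 of 13328 genes were called lower and 26.8% in either direction. F1 lay above F4 without overlap for 6 members in vehicle mice (15.7% of genes) and for 8 in ICZ mice (27.2% of genes), Pnp being the exception in ICZ mice.

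**Figure D3:**
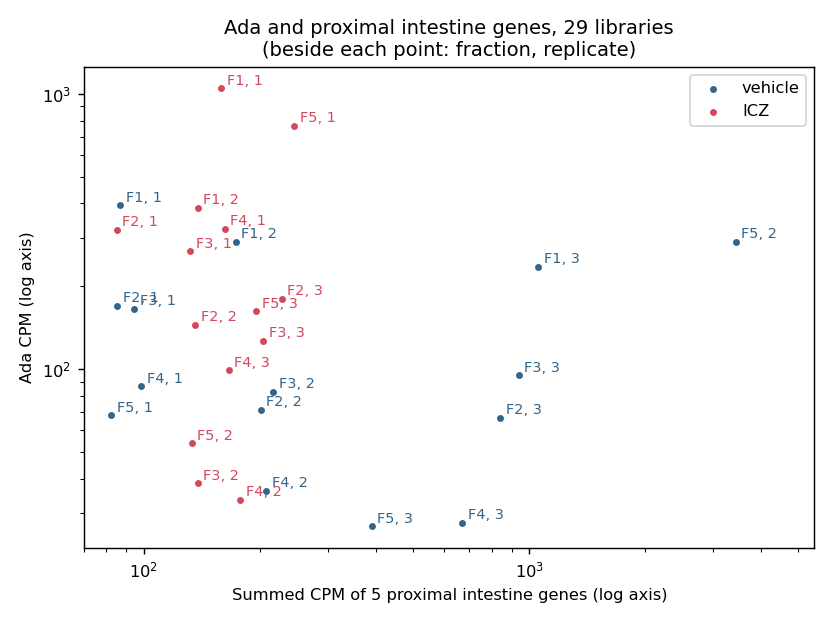
Ada (y axis, CPM, log axis) against the summed CPM of 5 proximal intestine genes (x axis, log axis), 1 point per library, labelled with fraction and replicate. The F5 library of vehicle replicate 2 lies far to the right at 3438 CPM, whereas the 5 libraries of ICZ replicate 1 lie between 85.0 and 246 CPM on the x axis.

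ICZ replicate 1 was high in every fraction for several members. Its F5 library held 766 CPM of Ada, 326 of Enpp3, 50.4 of Nt5e and 89.9 of Slc28a2, the highest F5 value of each gene over the 6 mice on the TMM scale. Its proximal genes summed to 246 CPM there, against 133 and 196 CPM in F5 of ICZ replicates 2 and 3. Cybrd1 stood at 25.1 CPM against 0.761 and 5.15 CPM, and Trpv6 at 7.74 CPM against 0.127 and 1.72 CPM. Intraepithelial T cell markers, a list of 12 genes from Cd3e to Trdc that includes none of the members, summed to 657 CPM in that library against 227 and 264 CPM in the other ICZ F5 libraries and 238 to 368 CPM in vehicle F5. Marker sums of other cell types stood apart in it as well. Stem cell markers summed to 277 CPM against 1022 and 1196 CPM in F5 of ICZ replicates 2 and 3, and Paneth cell markers to 3125 against 13278 and 24159 CPM. Goblet cell markers summed to 12980 against 4822 and 7781 CPM, tuft cell markers to 102 against 44.8 and 50.5 CPM, and villus tip markers to 3537 against 1982 and 2197 CPM. None of the T cell markers was at 0 in all libraries, and the part of these cell types in the members' values was not tested. Scaled to total gene reads in place of TMM, Ada (563 CPM) and Nt5e (37.0 CPM) in that library were still the highest F5 values, whereas Enpp3 (239 CPM) and Slc28a2 (66.0 CPM) lay below F5 of vehicle replicate 2 (284 and 86.4 CPM). The proximal and cell type sums are given on the TMM scale only, on which this library's Ada value is 766 CPM in place of 563 CPM. Leaving the F5 library of ICZ replicate 1 out of the ICZ comparison, again chosen after seeing the data, 8 of 9 members were called lower in F5 (20.0% of genes). With the proximal genes as a covariate 8 members were called lower in ICZ mice as well (17.5% of genes), Ada at -2.05 ± 0.36 (adjusted p = 0.00335) and Slc28a2 at -1.35 ± 0.28 (adjusted p = 0.00228) on the log2 scale in edgeR's test.

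Within the set, Ada, Enpp3, Slc28a2 and Nt5e varied together. Over 15 vehicle libraries the log2 CPM of Ada correlated at 0.97 with Enpp3, 0.95 with Slc28a2 and 0.88 with Nt5e, and over 14 ICZ libraries at 0.95, 0.98 and 0.97. Xdh correlated with Entpd5 at 0.91 and 0.87, and in vehicle libraries about as closely with Enpp3 (0.92), Ada (0.89) and Nt5e (0.89), while in ICZ libraries these were 0.75, 0.56 and 0.64 and its highest value was 0.92 with Slc28a1. Pnp and Ada correlated at 0.02 and -0.36. All these values are descriptions over libraries that share mice and fractions. Among 9269 genes with a mean of at least 5 CPM, the closest to Ada in vehicle mice were Enpp3, the tight junction gene Cldn4 (0.969) and the sugar phosphate enzyme gene Pgm1 (0.965). The closest to Enpp3 were Ada, Cldn4 (0.961) and the interferon-induced gene Rsad2 (0.956), and the closest to Slc28a2 were Ada, Enpp3 and Cldn4 (0.938). Nt5e was closest to the apoptosis regulator Cflar (0.954) and the ubiquitin ligase gene March8 (0.949), and in ICZ libraries the correlation with March8 was 0.367. Entpd5 was closest to Tspan13 (0.983), the monocarboxylate transporter gene Slc16a3 (0.979) and the apolipoprotein gene Apoa4 (0.979). Xdh was closest to Apol9a (0.980), the brush border cadherin gene Cdhr2 (0.977) and Ly75 (0.975), Entpd8 to the phosphatidate phosphatase gene Lpin3 (0.958), and Slc28a1 to the brush border peptidase gene Dpp4 (0.944).

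Other genes of the same pathways were taken from 9 lists. In vehicle mice the genes that make purines from small precursors went up from F1 to F5: 9 of 11 tested members of that list were higher and 1, Adss, was lower, where 14.9% of all tested genes were called higher and 13.2% lower, with a median log2 fold change of 1.04. These shares are the background for each list of this comparison. Gart, a trifunctional enzyme of the route, rose from 11.4 ± 4.81 to 30.5 ± 3.76 CPM, and Paics rose from 17.6 ± 1.86 to 40.4 ± 10.6 CPM (SD, n = 3 each). Atic, which completes inosine monophosphate, rose from 23.4 ± 9.63 to 53.8 ± 11.7 CPM. Stem cell and proliferation markers were higher in the same F5 libraries, and their part in these values was not tested.

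Purine catabolism and urate genes were called lower in 5 of 11 cases and higher in 1, with a median log2 fold change of -0.04 (all genes 13.2% lower and 14.9% higher). The guanine deaminase Gda fell from 3058 ± 33.5 to 1068 ± 447 CPM, and the urate transporter gene Slc2a9 fell from 39.4 ± 8.84 to 19.4 ± 6.82 CPM. In the molybdenum cofactor list, whose product Xdh needs, 3 of 5 genes were lower: Mocs2 (204 ± 15.1 to 121 ± 25.3 CPM), Mocos, which sulfurates the cofactor of Xdh (41.1 ± 6.62 to 24.5 ± 3.35 CPM), and Mocs1. Salvage kinases and phosphoribosyltransferases had 3 of 10 lower and 1 higher, with a median of 0.16 (all genes 13.2% and 14.9%). Aprt, which rebuilds AMP from adenine, went down from 396 ± 21.8 to 284 ± 15.7 CPM, and the nucleoside diphosphate kinase gene Nme1 went up from 86.6 ± 16.8 to 119 ± 22.9 CPM.

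Among 13 further genes of extracellular nucleotide hydrolysis, 2 were lower and 1 was higher, where 13.2% and 14.9% of all genes were, so the share called lower is close to the background. Entpd7 fell from 140 ± 2.65 to 86.1 ± 18.1 CPM and Entpd2 from 16.9 ± 2.69 to 9.88 ± 1.83 CPM, while the acid phosphatase gene Acpp rose from 10.8 ± 1.49 to 20.1 ± 3.29 CPM. Of the other nucleoside carriers 4 were tested, and 2 were higher and 0 lower in F5: the broad concentrative transporter gene Slc28a3 (8.34 ± 2.73 to 13.5 ± 1.72 CPM) and the equilibrative transporter gene Slc29a2 (0.946 ± 0.293 to 2.49 ± 0.666 CPM). Receptors for the products were called lower in 3 of 9 cases and higher in 0 (all genes 13.2% and 14.9%). In ICZ mice 3 of 9 were lower and 2 higher, where 2134 and 2205 of 13328 genes were. In vehicle mice the adenosine receptor gene Adora2b fell from 11.1 ± 1.59 to 3.59 ± 1.44 CPM, in the same libraries in which Nt5e fell. Its log2 fold change was -1.70 ± 0.28 (adjusted p = 0.000292 by edgeR). P2ry2 and P2rx4, receptors for extracellular ATP, had log2 fold changes of -1.04 and -0.46. For pyrimidine nucleosides 3 of 12 genes were lower, Upb1, Upp1 and Cda, and 2 were higher, Uck2 and Tk1 (all genes 13.2% and 14.9%). Of 9 intracellular nucleotidases and phosphatases, Samhd1 was called lower (194 ± 31.5 to 99.3 ± 28.4 CPM) and 0 were called higher.

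**Figure D4:**
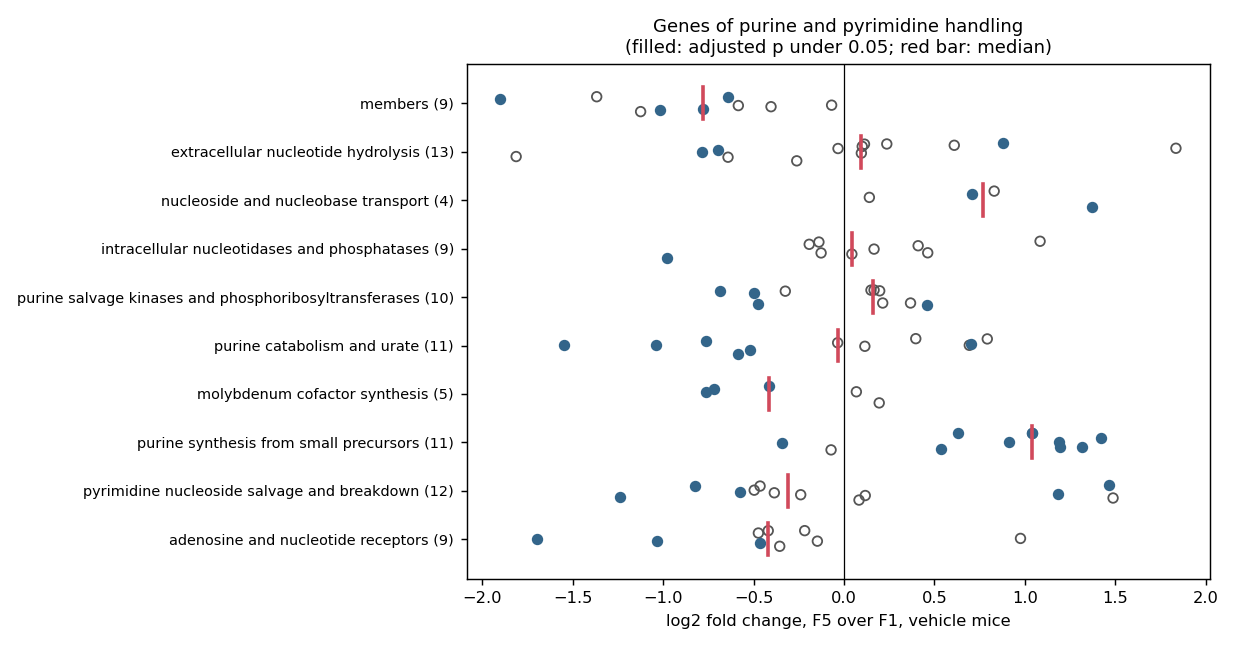
Log2 fold change of F5 over F1 in vehicle mice (x axis) for each tested gene of the 9 members and of 9 pathway lists (y axis, number tested in brackets). Filled points passed an adjusted p of 0.05, open points did not, and red bars are medians. The list of purine synthesis lies mostly to the right of 0 with a median of 1.04, and the members lie to the left with a median of -0.78.

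In F1, the fraction in which Enpp3 was chosen, 8 of 9 members had a higher mean with ICZ and Pnp had a lower one. Ratios of the ICZ mean (n = 2) to the vehicle mean (n = 3) were 2.43 for Nt5e, 2.33 for Ada, 1.99 for Enpp3 and 1.91 for Slc28a2. They were 1.43 for Slc28a1, 1.23 for Entpd8, 1.21 for Xdh and 0.881 for Pnp, with Entpd5 between Xdh and Pnp. Enpp3, Nt5e, Slc28a2 and Xdh did not overlap between treatments, as was so for 19.9% of 12335 genes, and nothing is read from this contrast. Some marker sums did not overlap in F1 either: villus tip markers were at 6825 and 6338 CPM with ICZ against 4766 to 5569 CPM in vehicle mice, goblet cell markers at 17443 and 18574 against 11772 to 16047 CPM, and enteroendocrine markers at 1007 and 931 against 777 to 796 CPM. Their part in the F1 values was not tested. For Ada the lower ICZ library, at 385 CPM, lay below the highest vehicle library, at 394 CPM.

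In F2 the ICZ means of Ada and Nt5e were again higher, by 2.10 and 2.01 times. Ada stood at 170, 71.1 and 66.7 CPM in vehicle mice and at 322, 145 and 181 CPM in ICZ mice (replicates 1 to 3). Nt5e stood at 8.29, 6.39 and 9.72 CPM and at 22.5, 13.4 and 13.3 CPM. The Nt5e groups did not overlap, which held for 16.9% of 12115 genes and for 1 of the 9 members, and the Ada groups overlapped. Without a block 0 members and 0.0165% of genes passed edgeR's test, with an adjusted p of 0.209 for Nt5e and 0.540 for Ada, and 1 of 9 members (Nt5e) had an unadjusted p under 0.05. The titles do not state a pairing, but they give replicates 2 and 3 the same WT number in both treatments, and replicate 1 different ones. With the replicate number as a block, 3 members were called higher with ICZ. In that fit 1.82% of genes were called in either direction. Ada stood at 1.07 ± 0.11 (adjusted p = 6.74e-05), Enpp3 at 0.60 ± 0.11 (adjusted p = 0.00827) and Nt5e at 0.92 ± 0.22 (adjusted p = 0.0428) on the log2 scale in that edgeR fit. Cell type markers moved in all 3 same-numbered pairs of F2 as well. T cell markers summed to 517, 637 and 1172 CPM in vehicle mice and to 394, 335 and 192 CPM in ICZ mice, and stem cell markers to 388, 494 and 474 CPM and to 407, 672 and 862 CPM. Proliferation markers summed to 717, 838 and 751 CPM and to 836, 1039 and 1297 CPM, and Paneth cell markers to 5316, 5903 and 7154 CPM and to 5664, 12418 and 16846 CPM. Their part in the F2 values was not tested. These F2 libraries come from the same mice as the F1 libraries on which Enpp3 was chosen.

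From F3 to F5 no member was called, with or without the block, where 0.00815% of genes were called in F3 and 0 in F4 and in F5 without it, and 0.187%, 0.0413% and 0.0653% with it. In F3 all 9 members had a log2 fold change above 0, from 0.01 for Entpd8 to 0.46 for Slc28a1, in F4 8 of 9 and in F5 6 of 9. The members' medians in F3, F4 and F5 were 0.10, 0.31 and 0.20, against -0.004, -0.01 and 0.01 over all tested genes. Without ICZ replicate 1 the members' medians were -0.04, 0.14 and -0.29, so the sign turned in F3 and F5 and stayed in F4. The median also fell below 0 in F3 without vehicle replicate 2 (-0.0034) and in F5 without vehicle replicate 3 (-0.0085). Without vehicle replicate 1, Slc28a1 was called higher with ICZ in F3 (0.83 ± 0.21, adjusted p = 0.0322 by edgeR). In F5 Nt5e had the largest estimate of the 9, 2.03 ± 0.91 on the log2 scale, with an unadjusted p of 0.0623 and an adjusted p of 1.00 by edgeR. The ICZ values of 50.4 and 12.5 CPM lay above the vehicle range of 2.25 to 8.12 CPM, and that of 5.58 CPM lay within it. Unadjusted p-values under 0.05 numbered 1122 in F3, 349 in F4 and 342 in F5 over all genes, and 0 among the members. On data simulated for ICZ against vehicle in F4, the test recovered 42 of 100 genes changed 2-fold and 94 of 100 changed 4-fold, with 11 false calls. A 2-fold difference in F4 can thus be missed at this depth and number of mice. The simulation gave every gene the same spread between libraries. In the real F4 libraries Ada had a log2 fold change of 1.65 ± 1.02, so these rates do not carry over to the members.

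Reads of F2 to F5 were then added per mouse, which leaves out the fraction that chose Enpp3. Ada came to 129, 122 and 53.9 CPM in vehicle mice and to 383, 69.7 and 149 CPM in ICZ mice, a ratio of means of 1.98. Nt5e came to 9.78, 7.42 and 6.09 CPM and to 25.7, 7.65 and 11.4 CPM, a ratio of 1.92. In both genes ICZ replicate 1 was the highest mouse and ICZ replicate 2 lay within the vehicle range, and without ICZ replicate 1 the log2 fold changes were 0.09 for Ada and 0.28 for Nt5e. Enpp3 came to 108, 102 and 46.4 CPM in vehicle mice and to 194, 60.3 and 103 CPM in ICZ mice, a ratio of 1.39. The remaining ratios were 1.28 for Slc28a2, 1.21 for Slc28a1, 1.09 for Entpd8, 1.04 for Entpd5, 0.981 for Xdh and 0.913 for Pnp.

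**Figure D5:**
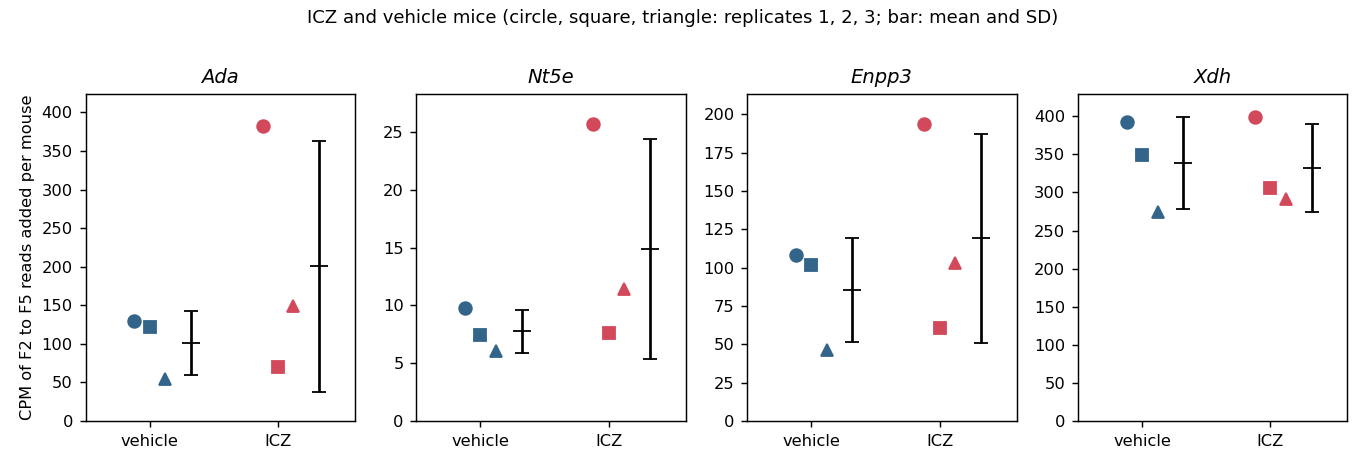
CPM of Ada, Nt5e, Enpp3 and Xdh from reads of F2 to F5 added per mouse (y axis, from 0), for 3 vehicle and 3 ICZ mice. Each point is a mouse, and the bar beside each group is the mean with its SD. ICZ replicate 1 is the highest mouse in all 4 panels, and the groups overlap in each.

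All 9 members overlapped between the treatments in these sums, where 11.4% of genes did not, and 0 of 9 were called, as were 0 of 15497 genes in edgeR's test. At an unadjusted p under 0.05 there were 886 genes and 0 members, and DESeq2 called 13 genes and 0 members. With the replicate number as a block 231 genes (1.49%) and 0 members were called. The log2 fold changes were 0.995 ± 0.75 for Ada (adjusted p = 0.894), 0.95 ± 0.45 for Nt5e (adjusted p = 0.846) and 0.49 ± 0.54 for Enpp3 (adjusted p = 0.926), and those of the other 6 lay between -0.13 and 0.37. Without ICZ replicate 1 Enpp3 stood at -0.08 and Slc28a2 at -0.23. Exact two-sided permutation tests of single members gave p between 0.2 and 1.0, where 3 mice against 3 cannot go below 0.1. Of the genes in the 9 pathway lists, 0 were called in this comparison in any list.

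Whether the ICZ effect changed along F2 to F5 was tested as a slope over fraction number in the 24 libraries of these fractions. No member passed edgeR's test, with adjusted p from 0.647 (Entpd5, -0.09 ± 0.06 per fraction on the log2 scale) to 0.995 (Entpd8), where 18 of 13447 genes (0.134%) did. Nt5e had the slope farthest from 0, at 0.305 ± 0.22 per fraction (adjusted p = 0.673). At an unadjusted p under 0.05 there were 1355 genes and 0 members.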

How the data were processed

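The deposited table holds whole-number read counts per gene, not normalized, for 54146 genes. Per the submitters' processing notes, the authors used FastQC 0.11.2, BWA 0.7.17-r1188, SAMtools 1.10 and HTSeq 0.11.2 and build GRCm38.p6 (mm10). Annotation release, strandedness of the counting and molecular identifiers were not given in the sources used here. Between 38.4% and 48.4% of counted reads stood on 5 summary lines that name no gene and were left out. The identifiers of 52480 genes matched GENCODE M21 with their version, which gave coordinates, and promoter windows came from RefSeq. Groups came from the labels, and a sample labelled undetermined entered no comparison.

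Tests used edgeR 4.0.16 in R 4.3.3 (filterByExpr, TMM, robust quasi-likelihood F test, Benjamini-Hochberg over all tested genes at 0.05), with DESeq2 1.42.0 as an alternative. Fraction comparisons had the mouse as a block. Standard errors are the size of the log2 fold change divided by the root of F. CPM were computed with TMM library sizes over 29 libraries, and log2 CPM for correlations with a pseudocount of 0.5. The titles do not state that vehicle and ICZ mice were paired. They carry WT3 for replicate 2 and WT4 for replicate 3 in both treatments. Replicate 1 is WT1 for vehicle and WT2 for ICZ, and the titles do not say what these numbers mean. Deviations from group means correlated at 0.381, 0.247 and 0.472 between vehicle and ICZ mice of the same number. Between mice of different numbers the values ran from -0.424 to -0.025. These values come from the same data and from 3 mice per treatment, so they do not establish a pairing. The main ICZ comparisons had no block, and values with the replicate number as a block are given where they change a call. P-values of ICZ comparisons without a block measure the spread between these mice. Those of blocked fits measure the spread of libraries that is left once differences between mice or replicate numbers are removed. Fraction comparisons without the mouse block treat libraries of the same mouse as independent, so their p-values mix the spread within and between mice.

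The members and gene lists were chosen with earlier results of these data known. Named were all members, up to 4 genes of smallest p per pathway list for the fractions and up to 2 for ICZ, and the 3 genes of most similar pattern per member, without predicted and clone-named genes in the text. The lists of proximal intestine and pancreas genes, and Egfr, Adss and Tk1, were chosen after values were seen. The models were tested on simulated data. On data simulated for F5 against F1 in vehicle mice, 35 of 100 genes changed 2-fold and 96 of 100 changed 4-fold were recovered, with 9 false calls. Every simulated gene had the same spread between libraries, so these rates need not hold for the members.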

Additional observations from a re-analysis of the deposited data

How the results depend on the processing

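Of the 9 members, 4 were called lower in F5 than in F1 of vehicle mice. The count was 7 without a filter on low counts, 7 with the proximal genes as a covariate, 7 without the F5 library of vehicle replicate 2, and between 1 and 6 when each replicate was left out in turn. Without the filter the SE in vehicle mice fell from 0.89 to 0.15 for Enpp3 and from 0.73 to 0.15 for Ada. For Entpd5 it rose from 0.14 to 0.15. The members had all passed the filter, so calls without it rest on a changed estimate of the spread. Genes called there ranged from 886 to 4215 over the replicates left out, against 3703. In ICZ mice 6 members were called, and 8 without a filter, with the proximal genes as a covariate, in F4 against F1 and without the F5 library of ICZ replicate 1. With replicates left out in turn the counts were between 2 and 7 members, and between 1098 and 4987 genes, against 4339. Without the mouse block the vehicle call of Xdh was lost (adjusted p = 0.0593), as were the ICZ calls of Enpp3 (0.236) and Nt5e (0.347). Signs turned, uncalled, for Pnp in F4 against F1 (0.22 in vehicle mice, 0.24 in ICZ mice) and, with replicates left out, for Pnp (-0.23 to 0.064 in vehicle mice, -0.32 to 0.12 in ICZ mice) and Slc28a2 (-1.98 to 0.13 in vehicle mice). For ICZ against vehicle, genes called with DESeq2, without a filter and with the replicate block were 125, 351 and 221 in F2 against 2, 12, 221 and 23 in F3 against 1, 4, 26 and 5 in F4 against 0, 5, 37 and 8 in F5 against 0, and 13, 36 and 231 for F2 to F5 added against 0. With replicates left out in turn they ranged from 0 to 267, 0 to 498, 0 to 1, 0 to 1 and 0 to 3. In F2, 2 members were called without a filter and 3 with the replicate block, and in F3 between 0 and 1 with replicates left out. The replicate block changed no other call of a member. For the slope, 18 genes were called, 47 with DESeq2, 244 without a filter, 10 with F2 to F4, and 0 to 38 with replicates left out. In the added reads, signs turned with replicates left out for Xdh (-0.19 to 0.10), Entpd5 (-0.058 to 0.21), Enpp3 (-0.078 to 0.79), Entpd8 (-0.071 to 0.27) and Slc28a2 (-0.23 to 0.68), and for Xdh with F2 to F4 alone (0.040). The causes were not tested. The lowest Nt5e library held 16 reads of that gene, which limits its precision.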

Other observations

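The sample labelled undetermined, whose label gives neither treatment nor fraction, held 7484796 gene reads. Scaled to total gene reads, it had 200 CPM of Ada, 136 of Enpp3, 15.4 of Nt5e, 29.4 of Slc28a2, 22.0 of Slc28a1, 381 of Xdh, 81.9 of Entpd5, 13.6 of Entpd8 and 10.7 of Pnp. Each of these values lies within the range of the 15 vehicle libraries, which for Ada runs from 29.7 to 374 CPM on that scale.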
